A study of Glycine max with 6 samples.

Results

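The genes described here are 4 soybean genes for sugar transporters, of 66184 gene names on the 66 K Affymetrix Soybean Array. They were taken by name: Glyma01g44930, Glyma01g36150, Glyma01g09220 and Glyma01g34890, each measured by 1 probe set that shares its values with 0 other probe sets. In the study's annotation table Glyma01g44930 is matched to *Arabidopsis* STP13, Glyma01g36150 to TMT2 and Glyma01g09220 to STP1, while Glyma01g34890 is matched to a putative sugar transporter without a name. The match to TMT2 is the weakest of them in the wording of that table, "moderately" against "highly" similar. All 4 names lie on chromosome 1. They were chosen by their log2 fold changes in these 6 arrays, already known, as 2 genes that rose and 2 that did not. Their own changes are therefore given as a description and carry no p-value.

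RNA came from the 4th trifoliate leaf of soybean cultivar Williams 82, grown in a greenhouse with 3 plants per pot. The study calls these V6 leaves, after the late vegetative stage at which water was withheld. It describes the plants at collection, after 6 days, as beginning bloom. Drought-stressed plants (plants 1, 2 and 4) had gone 6 days without water, and well-watered plants (plants 14, 15 and 16) were watered as usual. The treatment protocol puts the start of drought at 28 days after sowing, and the growth protocol puts the V6 stage at 35 days. Each whole leaf was 1 RNA sample, so a change per cell and a change in the share of a cell type cannot be told apart.

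Sugars leave the photosynthesizing cell, cross the apoplast and enter other cells or the vacuole through membrane carriers. In *Arabidopsis*, STP proteins are plasma membrane symporters that take monosaccharides into the cell together with protons. STP13 is a high-affinity hexose carrier, and STP1 is another hexose importer, known from seedlings and guard cells. TMT2 sits in the tonoplast and moves monosaccharides into the vacuole, where leaves store soluble sugars. Leaves under water deficit commonly gather soluble sugars, which lower the osmotic potential of the cell.

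The values below are log2 signals relative to each probe's own median over the 6 arrays. They show how plants differ in 1 gene and not how abundant a transcript is, so the levels of the 4 genes cannot be ranked against each other and leaf markers cannot be shown present or absent. For a gene whose groups do not overlap, this centring puts 0 midway between the lowest value of the one group and the highest of the other. Over the whole array the median log2 fold change was -0.050, and array medians ran from -0.0968 (well-watered plant 16) to 0.132 (well-watered plant 14).

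Glyma01g44930, the match of the plasma membrane hexose carrier STP13, had log2 signals of 2.44, 2.38 and 2.75 in drought-stressed plants 1, 2 and 4. In well-watered plants 14, 15 and 16 they were -2.58, -2.38 and -2.77. Every drought-stressed plant was above every well-watered plant, and the gap between the groups, 4.76, was over 10 times as wide as the spread within either group (ranges 0.373 and 0.394). The group means were 2.52 ± 0.20 (SD, n = 3) and -2.58 ± 0.20 (SD, n = 3). The log2 fold change was 5.10 (standard error 0.18), a 34.3-fold higher signal under drought. Of all 66195 probes, 65 had a larger log2 fold change, and among the 3139 probes with names on chromosome 1 the gene was number 4.

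Glyma01g36150, the match of the vacuolar carrier TMT2, had log2 signals of 1.74, 1.60 and 2.08 in drought-stressed plants 1, 2 and 4. The well-watered plants 14, 15 and 16 were at -1.79, -1.60 and -2.01. The groups were again apart, by a gap of 3.21, with ranges of 0.474 under drought and 0.407 with water. Means were 1.81 ± 0.24 (SD, n = 3) in the drought-stressed and -1.80 ± 0.20 (SD, n = 3) in the well-watered plants. Drought raised the signal by 3.61 on the log2 scale (standard error 0.19), or 12.2-fold. The change was number 224 of all probes and number 9 on chromosome 1.

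Glyma01g09220, the match of the hexose importer STP1, showed no such separation. Its log2 signals were -0.33, -0.051 and 0.051 in drought-stressed plants 1, 2 and 4, and 0.27, 0.33 and -0.41 in well-watered plants 14, 15 and 16. The lowest and the highest of the 6 plants were both well-watered, so the drought-stressed plants lay inside the range of the controls. The means were -0.11 ± 0.20 (SD, n = 3) and 0.065 ± 0.41 (SD, n = 3). The log2 fold change of -0.18 was smaller than its standard error of 0.23. Without well-watered plant 16, the lowest plant, the log2 fold change was -0.41 (standard error 0.18), so its size depended on 1 plant.

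Glyma01g34890, the putative sugar transporter, had log2 signals of -0.23, 0.40 and -0.064 in drought-stressed plants 1, 2 and 4. Well-watered plants 14, 15 and 16 were at 1.22, 0.0066 and -0.0066. Plant 14 stood above all others, and the other 5 plants overlapped. Means were 0.034 ± 0.33 (SD, n = 3) in the drought-stressed and 0.41 ± 0.70 (SD, n = 3) in the well-watered plants. The difference was -0.37 (standard error 0.32), and without well-watered plant 14 it was 0.034, so 1 plant set its direction. Plant 14 also had the highest array median, 0.132. With each array centred on its median the log2 fold change was -0.34.

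**Figure D1:**
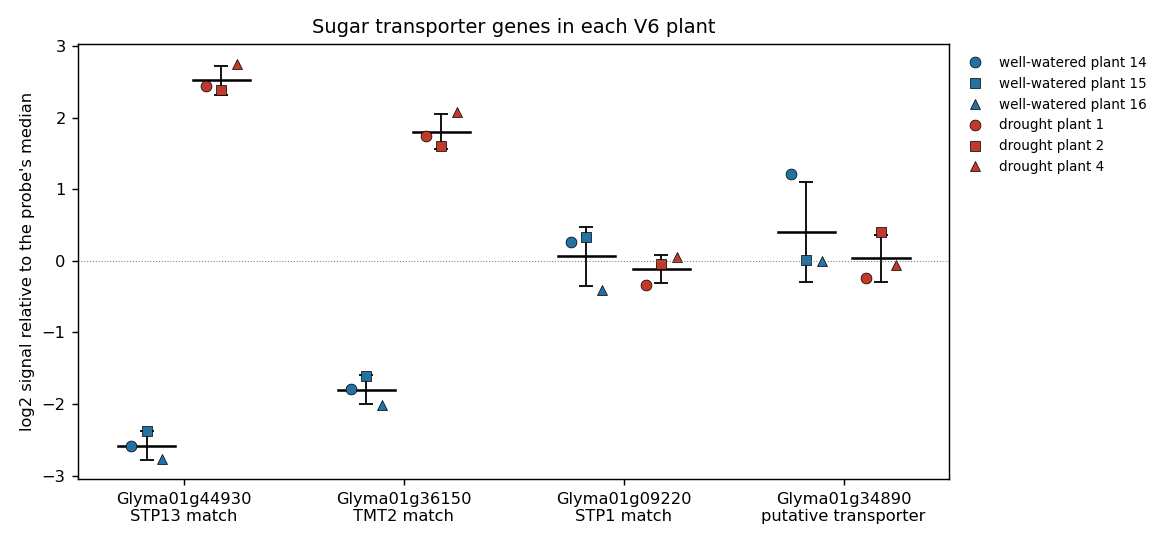
Log2 signal of the 4 sugar transporter genes relative to each probe's median (y axis) in every V6 plant, blue for well-watered and red for drought-stressed plants, with group means and SD bars (n = 3 each). The groups lie apart for Glyma01g44930 and Glyma01g36150 and overlap for Glyma01g09220 and Glyma01g34890, where plant 14 stands at 1.22.

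Of the 4 genes, 2 passed a fold of at least 2 with an adjusted p under 0.05, both higher, beside 4.33% of all probes called higher. The same 2 had groups that did not overlap with drought above, as did 14.4% of all probes. These counts only repeat how the genes were picked. The order of the 4 changes was Glyma01g44930, Glyma01g36150, Glyma01g09220 and Glyma01g34890. The changes of the STP13 and TMT2 matches were 5.10 and 3.61 with standard errors of 0.18 and 0.19, and those of the other two, -0.18 and -0.37, differed by less than the standard error of either.

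The members also differed in how much plants of 1 group varied. Among well-watered plants the SD of Glyma01g44930 (0.20) was above that of 37.9% of all probes and that of Glyma01g36150 (0.20) above 39.9%. For Glyma01g09220 (0.41) the share was 83.2%, and for Glyma01g34890 (0.70) it was 97.6%. Under drought the shares were closer together, 57.5% for Glyma01g44930, 69.0% for Glyma01g36150, 57.2% for Glyma01g09220 and 83.7% for Glyma01g34890. The 2 genes with no clear change had the wider spread with water, in each with 1 of 3 plants apart from the others. This was plant 16 at -0.41 for Glyma01g09220 and plant 14 at 1.22 for Glyma01g34890. Whether spread goes with the lack of a change was not tested, and the genes were picked by their changes. The standard error of Glyma01g34890 was above that of 96.5% of all probes.

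A difference between 2 genes in the same array is the same whatever constant that array was shifted by. Glyma01g44930 minus Glyma01g36150 was 0.70, 0.78 and 0.67 in drought-stressed plants 1, 2 and 4, and -0.80, -0.78 and -0.76 in well-watered plants 14, 15 and 16. Within a group this difference hardly varied, with an SD of 0.053 under drought and 0.018 with water, against 0.20 to 0.24 for either gene alone. In both genes plant 4 was the highest and plant 2 the lowest under drought, and plant 15 the highest and plant 16 the lowest with water.

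The rise of the STP13 match exceeded that of the TMT2 match by 1.49 on the log2 scale (standard error 0.032), or 2.82-fold. Standard errors of these differences come from the spread of each difference alone, while those of single genes come from the limma fit. They do not cover the choice of scaling, and with quantile normalization the difference was 1.315. Against the STP1 match, the STP13 match rose more by 5.28 (standard error 0.18) and the TMT2 match by 3.78 (standard error 0.19). Against Glyma01g34890 these differences were 5.47 (standard error 0.49) and 3.98 (standard error 0.50). The STP1 match minus Glyma01g34890 was -0.100, -0.45 and 0.11 under drought and -0.95, 0.33 and -0.40 with water, and the drought-stressed plants again fell within the range of the well-watered ones. The difference of their changes was 0.20 (standard error 0.40).

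**Figure D2:**
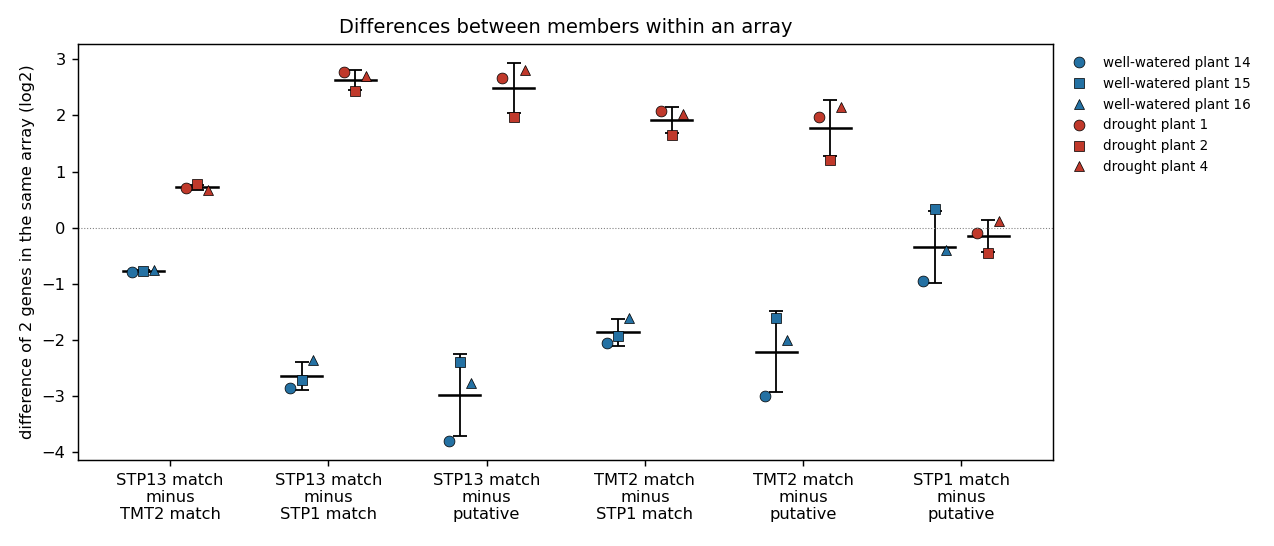
Difference between 2 members in the same array (y axis, log2) for the 6 pairs of genes, blue for well-watered and red for drought-stressed plants, with means and SD bars (n = 3 each). For the STP13 match minus the TMT2 match the 3 plants of a group nearly coincide (SD 0.053 and 0.018), while the 3 pairs with the putative transporter spread most.

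Leaving out any 1 plant kept the log2 fold change of Glyma01g44930 between 4.99 and 5.20 and that of Glyma01g36150 between 3.47 and 3.71. Glyma01g09220 ran from -0.41 (standard error 0.18) without well-watered plant 16 to -0.042 (standard error 0.25) without well-watered plant 15. With array quality weights Glyma01g09220 was at -0.33 (standard error 0.18). Glyma01g34890 ran from -0.58 without well-watered plant 16 to 0.034 without well-watered plant 14. With each array centred on its median, the 4 changes were 5.14, 3.64, -0.14 and -0.34.

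**Figure D3:**
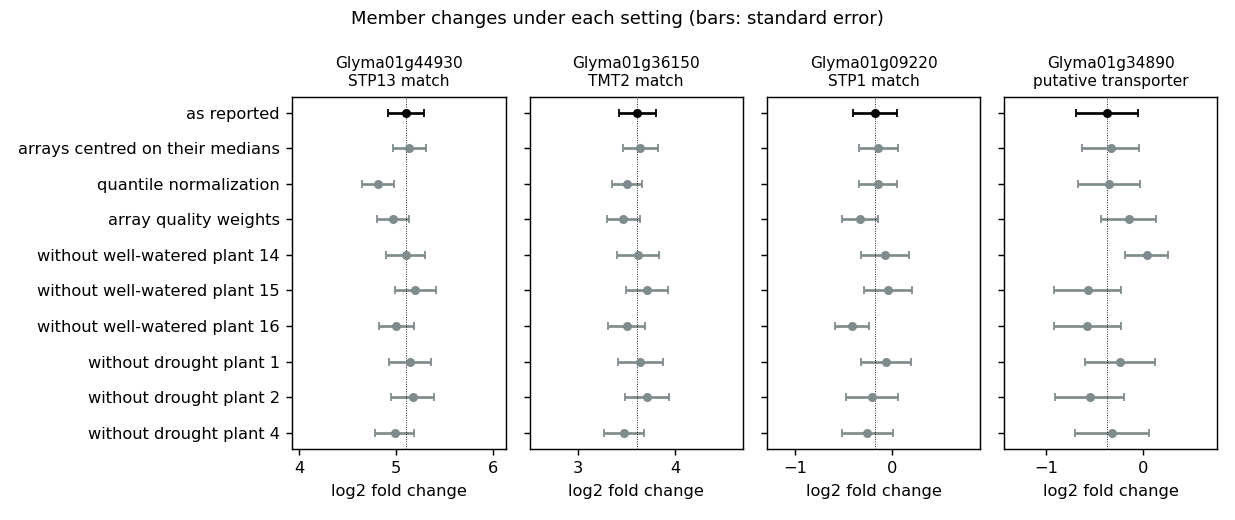
Log2 fold change (x axis, drought over well-watered) of each member as reported (black) and under 9 other settings (grey) with bars of 1 standard error, on panels of equal width. The estimate changes sign only for Glyma01g34890, without well-watered plant 14, and bars reach across 0 in some settings for Glyma01g09220 and Glyma01g34890.

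Hexoses inside a cell can be phosphorylated or stored, and the breakdown of sucrose and starch also yields sugars. In the rows of the annotation table used here, all on chromosome 1, 16 further genes handle sugars by their descriptions. Their counterparts on other chromosomes were not examined. Of these 2 were higher, 0 were lower and 14 were not called, so 12.5% were called beside 9.46% of all probes. An unadjusted p under 0.05 from limma was found for 4 of the 16, beside 26.5% of all probes. The groups did not overlap, in either direction, for 5 of the 16, beside 20702 of all 66195 probes. Their median log2 fold change was -0.041, against -0.050 over all probes.

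The gene with the clearest change was the match of UGE5 (Glyma01g43540), an epimerase that converts UDP-glucose and UDP-galactose into each other. Its log2 signals were 1.70, 1.82 and 2.02 in drought-stressed plants 1, 2 and 4, and -1.70, -1.79 and -1.92 in well-watered plants 14, 15 and 16. All drought-stressed plants were above all well-watered plants. In limma it rose by 3.66 (standard error 0.17) with an adjusted p of 6.7e-07, close to the 3.61 of the TMT2 match. A phosphofructokinase family gene (Glyma01g00870), of the enzyme family that commits hexose phosphates to glycolysis, was at 0.47, 0.55 and 0.82 under drought and at -0.55, -1.06 and -0.47 with water. In limma it rose by 1.30 (standard error 0.20) with an adjusted p of 0.0014. The 2 higher genes kept their call under the methods' t-test, under each scaling and without each plant in turn.

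The other kinase genes of this chromosome 1 list were not called. Hexokinase HXK1, which phosphorylates glucose and also senses it, has 2 matches in the list, Glyma01g01060 at -0.073 and Glyma01g01070 at -0.10. The second phosphofructokinase family gene (Glyma01g03040) was at -0.11, against 1.30 for the first. The pfkB-type carbohydrate kinase gene (Glyma01g26990) was at -0.51, with a standard error of 0.17 and a limma adjusted p of 0.081. For this gene every drought-stressed plant was below every well-watered plant.

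The genes of the list described as invertase or beta-amylase were not called either. The match of vacuolar invertase (Glyma01g41990), which splits sucrose into hexoses inside the vacuole, was at 0.42, 0.0096 and 0.50 in drought-stressed plants 1, 2 and 4 and at -0.0096, -0.18 and -0.64 in well-watered plants 14, 15 and 16. The groups did not overlap, but plants 2 and 14 nearly met, and the log2 fold change of 0.59 (standard error 0.21) had an adjusted p of 0.10 from limma. The genes described as beta-amylases gave -0.26 for the match of BAM3 (Glyma01g41190) and 0.28 for the match of BAM8 (Glyma01g35500), both with overlapping groups.

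Among the other sugar carriers of the list, the putative mannitol transporter gene (Glyma01g38040) was at -0.090. The match of the UDP-galactose transporter UTR3 (Glyma01g05170) was at -0.0092. The match of GPT2 (Glyma01g28460), which carries glucose 6-phosphate across the plastid envelope, was at -0.22, -0.080 and 1.59 in drought-stressed plants 1, 2 and 4. Plant 4 alone was high, above well-watered plants at 0.080, 0.15 and -0.28, and the log2 fold change of 0.45 had a standard error of 0.41. The match of TPS9 (Glyma01g03870), a trehalose phosphate synthase family protein, was at -1.89 in well-watered plant 16 and between -0.70 and 0.36 in the other 5 plants. Its log2 fold change was 0.56 (standard error 0.47). The remaining 3 genes were not called, a putative UDP-glucose 6-dehydrogenase (Glyma01g06970) at 0.027, the match of the myo-inositol oxygenase MIOX2 (Glyma01g00840) at -0.28 and the match of ISI1 (Glyma01g31870) at -0.16. For the MIOX2 match every drought-stressed plant was below every well-watered plant.

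**Figure D4:**
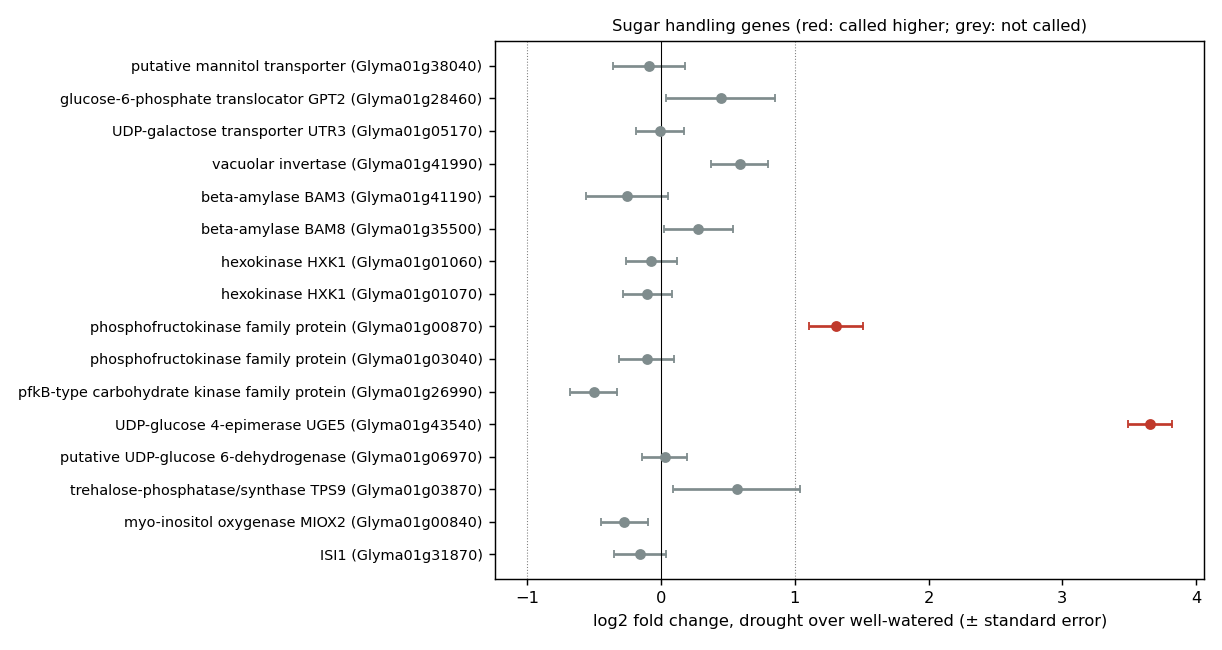
Log2 fold change with its standard error (x axis, drought over well-watered) of the 16 sugar handling genes, red where called higher and grey where not called, with dotted lines at a fold of 2. UGE5 (3.66) and 1 phosphofructokinase gene (1.30) stand to the right, and the other 14 lie between -0.51 and 0.59.

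Other genes with a transport term in their description give the second comparison. The annotation rows used, all on chromosome 1, hold 37 of them, without protein carriers and electron carriers. They include a water channel, an anion channel and genes whose description states no substrate. Of the 37 genes 1 was higher, 4 were lower and 32 were not called, which is 13.5% called beside 9.46% of all probes. By direction, 2.70% were higher and 10.8% lower, beside 4.33% and 5.14% of all probes. Their log2 fold changes ran from -1.73 to 1.74 with a median of -0.20, and 26 of the 37 (70.3%) were below 0, against 56.8% of all probes. The changes of Glyma01g44930 and Glyma01g36150, 5.10 and 3.61, were beyond that whole range, and those of Glyma01g09220 and Glyma01g34890 were within it. The 4 genes were picked by these changes, so their places only repeat the choice and test nothing.

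The 1 higher gene encodes a mitochondrial substrate carrier (Glyma01g05440), a family that moves metabolites across the inner mitochondrial membrane, and rose by 1.74 with a standard error of 0.20 and a limma adjusted p of 1.8e-04. A second gene of that family (Glyma01g02950) fell by 1.73 on the log2 scale with a standard error of 0.22 and a limma adjusted p of 3.6e-04. A putative copper transporter gene (Glyma01g26360) was lower, with -1.60, and so was a putative lysine and histidine transporter gene (Glyma01g21510), with -1.24. The match of the ureide permease UPS2 (Glyma01g07120), named after its value was seen, was lower with -1.13. Without well-watered plant 16 its log2 fold change was -0.96, under the fold of 2, and the call was lost. The methods' t-test, which called 5.75% of all probes, left out the copper transporter gene.

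Genes next to the 4 members were not called. Among the 3 names on each side of every member, 24 neighbours in all, 0 were called by limma, beside 9.46% of all probes, and 0 by the methods' t-test, while 6 had an unadjusted p under 0.05 from limma, beside 26.5% of all probes. On an adjusted p under 0.05 alone, limma picked 3 of the 24 neighbours, beside 16.4% of all probes. These were Glyma01g44920 (adjusted p 0.046), Glyma01g36160 (adjusted p 0.038) and, near Glyma01g09220, Glyma01g09240 at -0.67 (adjusted p 0.027). The 24 values ran from -0.67 to 0.58 on the log2 fold change scale. Those named here were not called, fall outside the naming rule and were chosen after their values were seen. Next to Glyma01g44930, with 5.10, Glyma01g44920 was at 0.52 and Glyma01g44940 at -0.16. The largest rise of a neighbour was 0.58, for Glyma01g44910, which precedes Glyma01g44920. For Glyma01g44910 and Glyma01g44920 every drought-stressed plant was above every well-watered plant. Next to Glyma01g36150, with 3.61, Glyma01g36140 was at -0.080 and Glyma01g36160, the match of the RING finger gene ATL8, at -0.66.

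**Figure D5:**
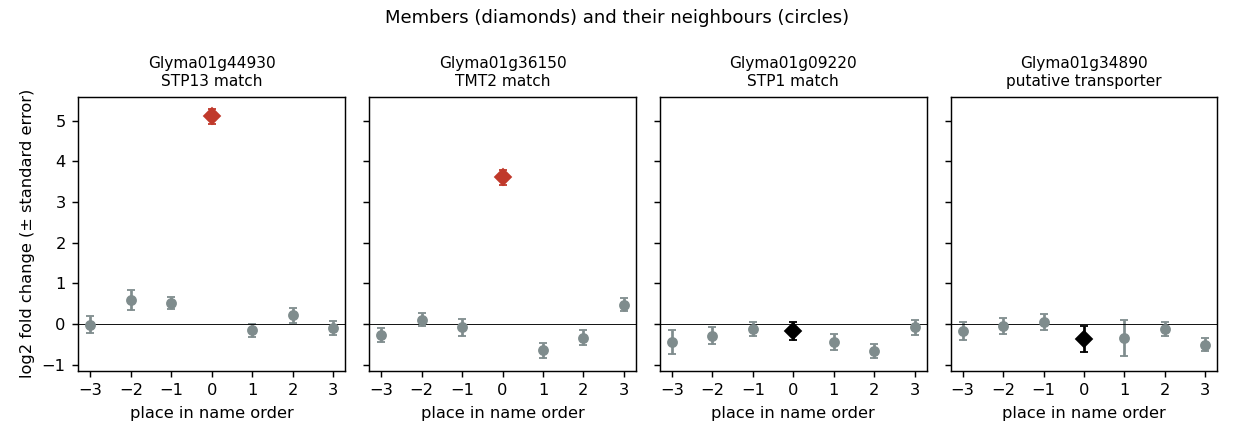
Log2 fold change with its standard error (y axis, drought over well-watered) of each member (diamond) and of the 3 names before and after it (circles), by place in the order of gene names (x axis). The STP13 and TMT2 matches stand at 5.10 and 3.61 above neighbours that all lie between -0.67 and 0.58.

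Patterns over the 6 plants were compared by the root mean square difference of the log2 values, which counts both the size of the change and the order of the plants. Only genes on chromosome 1 had a description in the rows used here, so the annotated genes named below all come from that chromosome. Of all probes, the nearest to the TMT2 match was the UGE5 match Glyma01g43540, at 0.130. Their order of plants differed. Under drought plant 1 was lowest for the UGE5 match and plant 2 for the TMT2 match. With water plant 14 was highest for the UGE5 match and plant 15 for the TMT2 match. Next among annotated genes were Glyma01g09360, the match of the oxidoreductase SRG1 (senescence-related gene), at 0.179, and Glyma01g37490, of the FAD linked oxidase family, at 0.301. Glyma08g13180 and Glyma06g02380, which have no description in the rows used here, were at 0.141 and 0.143. Within 0.5 of the TMT2 match lay 266 other probes.

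For the STP13 match 68 other probes lay within 0.5. The nearest were Glyma13g01870 at 0.159, Glyma16g04190 at 0.172 and Glyma05g24420 at 0.177, none with a description in the rows used here. Among the annotated genes, which are those of chromosome 1 only, the nearest was Glyma01g42840 at 0.340, the match of glutathione peroxidase GPX6, which reduces peroxides. Next were Glyma01g41330, the match of the expansin-like gene EXLB1, at 0.374, and Glyma01g35620, described as related to alcohol oxidase, at 0.659, which is outside 0.5. These 3 had log2 fold changes of 4.88, 5.80 and 3.89.

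Patterns close to 0 were common, and 52809 probes lay within 0.5 of the STP1 match and 22142 within 0.5 of Glyma01g34890. The nearest probe to the STP1 match was Glyma04g14960 at 0.041, followed by Glyma09g35840 at 0.046 and Glyma08g04140 at 0.047. The nearest annotated genes on chromosome 1 were Glyma01g01550, of the ankyrin repeat family, at 0.075, Glyma01g09530 at 0.079 and Glyma01g24870 at 0.082. The nearest to Glyma01g34890 were Glyma02g18340 at 0.073, Glyma16g28770 at 0.088 and Glyma08g45180 at 0.089. Its nearest annotated genes were a protein kinase gene (Glyma01g03410) at 0.205, the match of the glycosyltransferase UGT72E2 (Glyma01g38430) at 0.227 and the match of TET1, a tetraspanin (Glyma01g02170), at 0.228.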

How the data were processed

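Each array was 1 plant: 3 drought-stressed (plants 1, 2 and 4) and 3 well-watered (plants 14, 15 and 16), grouped by sample title. The authors computed the log2 values with RMA at gene level in Affymetrix Expression Console without normalization, and GeneSpring then scaled each array to its 75th percentile. In the deposited log2 values every probe has a median of 0 across the 6 arrays, so they hold no absolute level and no background signal, and precision is given by the standard error. The comparison file deposited by the authors gave the gene name of each probe. The fold change score in that file, made by the authors from the same log2 values as a signed fold of drought over well-watered, served only to check that the rows of the 2 files match. The p-values in that file, made by the authors with a Student's *t*-test, were not used.

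All 66195 probes were fitted without a filter by lmFit and eBayes in limma 3.58.1 (R 4.3.3), with Benjamini-Hochberg adjustment over all probes. Calls needed an adjusted p under 0.05 together with a fold of 2 or more. The methods give 3 plants per pot, without saying which plants shared one, so plants were treated as independent. The limma step was also tested on simulated data, with noise of the variance fitted for each probe in the real arrays.

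The 4 genes, the gene lists and the naming rule were chosen with earlier results of these data known. Changes of the 4 genes are therefore given without a p. Besides the 4 genes, the rule names every sugar handling gene, the 3 largest rises and 3 largest falls called among other transporters, the 3 nearest patterns per gene, and called neighbours. *Arabidopsis* matches are those of the study's annotation table, of which 1849 rows, all on chromosome 1, were used. The RefSeq table used here matched 0 of the 4 gene names, so no sequence is shown, and close relatives and promoters were not analysed here. Alternatives tried were the methods' t-test, quantile normalization, centring each array on its median, array quality weights, no fold minimum and leaving out each plant.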

Additional observations from a re-analysis of the deposited data

How the results depend on the processing

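The 2 sugar handling genes called, the 5 other transporters and the 0 neighbours kept these counts, within 1.5 times, with arrays centred on their medians, quantile normalization, array quality weights and the methods' t-test. Without 1 plant in turn the sugar handling count stayed at 2, the other transporters gave 4 to 6 and the neighbours 0. With no fold minimum, 8 other transporters and 3 neighbours had an adjusted p under 0.05 from limma, and 5131 and 5706 of all probes were higher and lower. The methods' t-test called 1808 probes higher and 2000 lower. Quantile normalization gave a log2 fold change of 4.82 for Glyma01g44930, and its change beyond Glyma01g36150 and Glyma01g09220 became 1.315 and 4.97. No other change of the 4 genes, and no other difference between them, moved by more than the larger SD of the 2 groups.

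No paired analysis was possible because the plant numbers of the 2 groups differ. Close relatives of the members and promoter motifs were not run, since no table used here links the gene names to sequences. With 3 plants per group, an exact permutation test cannot give a p under 0.1. The values hold no signal level, so the precision of a dim probe cannot be read from its brightness.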
